A study of Homo sapiens with 6 samples.

Results

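MCF10A cells are an established line of benign human breast epithelium. A derivative that overexpresses GIRK1 (MCF10A GIRK1) was compared with 3 control libraries, namely both libraries of a line that carries eGFP alone (MCF10A eGFP) and replicate 2 of the parental line (MCF10A WT). The question was which changes in gene expression held against all 3 controls. RNA was read by Ion AmpliSeq Transcriptome sequencing, which amplifies 1 stretch of cDNA for each gene and counts the reads of each stretch. All 20802 gene amplicons of the 20812 in the data belonged to the comparison, and the 11389 with enough reads were tested. It used 5 of the 6 libraries, 2 of MCF10A GIRK1 and 3 controls.

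The GIRK1 coding sequence was placed in a bicistronic plasmid that also encodes eGFP, and the eGFP line received the plasmid with eGFP only. Both lines were transfected with linearized DNA, selected with G418 and enriched for green cells by flow sorting, and were then grown in the same supplemented medium as the parental cells. MCF10A WT carried no plasmid and went through neither selection nor sorting, and the lines were used over different ranges of passages. Each line therefore differs from MCF10A WT in more than its transgene, and only MCF10A eGFP shares the vector and the selection with MCF10A GIRK1. The deposit speaks of 2 overexpressing and 2 control lines and the study's methods of 2 replicates, and nothing says that replicates came from separate cultures. The p-values below therefore measure the spread between these libraries, which may be technical. The data of both GIRK1 libraries carry a tag in their names that no control has. Whether it marks a sequencing run is not known, and such a run could not be told apart from the condition.

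GIRK1 is a subunit of a potassium channel that opens when the beta-gamma dimer of a Gi/o protein binds to it, and in most tissues it works together with another GIRK subunit. Many of the genes that led the comparison belong to the interferon response. In that pathway type I interferon activates the kinases JAK1 and TYK2, and a complex that holds STAT2 and IRF9 (ISGF3) then forms and binds the interferon-stimulated response element (ISRE) in the promoters of antiviral genes. STAT2, IRF9 and IRF7 are themselves induced by the pathway, as are the genes of MHC class I antigen presentation.

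WT replicate 1 was left out, a choice selected on its own expression values, which are described here without a test. It had 0.798 RPM (reads scaled to the library total) of KRT5 and 0 reads of KRT14 and KRT17, the basal keratins, whereas the other 5 libraries had 3862 to 10660.2 RPM of KRT5, 306 to 592 RPM of KRT14 and 853 to 4513 RPM of KRT17. It had 192 RPM of the oestrogen receptor gene ESR1, 62.7 RPM of PGR, 5106 RPM of TFF1 and 924 RPM of KRT19, all at 0 reads in the other 5 libraries. TP63, a further basal marker, was at 0 reads in all 6. Over 9212 genes (mean of 50 reads or more), WT replicate 1 was at least 2-fold apart from each other library in 3435 to 3600 genes, and pairs of the other 5 libraries in 91 to 1624. Among the controls, MCF10A eGFP replicate 1, the shallowest with 5126930 reads against 10233974 and 16040556, stood 837 genes from its own replicate and 1054 from WT replicate 2, whereas those latter libraries were 91 genes apart. The MCF10A GIRK1 libraries held 11107309 and 10346572 reads and were 120 genes apart. Results are given with WT replicate 1 where it bears on them, and its part in them was not tested beyond that.

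KCNJ3, which encodes GIRK1, had 0 reads in each of the 3 controls. MCF10A GIRK1 had 2408 and 3677 reads, or 217 and 355 RPM (exact 95% intervals 208 to 226 and 344 to 367, counting error only). Both GIRK1 libraries thus stood far above the 3 controls, at least 489-fold by the floor of 3 reads per library (adjusted p = 0.00140). The amplicon lies at positions 1052 to 1151 of transcript NM_002239, and reads of the transgene and of the endogenous gene (chromosome 2, 154698299 to 154858352, plus strand, GRCh38) cannot be told apart. The other GIRK subunit genes KCNJ6, KCNJ9 and KCNJ5 had 0 reads in all 6 libraries. Each was read by 1 amplicon, so 0 reads do not show that a gene is silent. The study cites earlier work that found GIRK4 protein, encoded by KCNJ5, in MCF10A. It also reports a resting potential of MCF10A GIRK1 that was sensitive to a blocker of channels with GIRK1. WT replicate 1 had 48 reads of KCNJ3, and with that library kept as a further control the adjusted p was 0.70.

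In the 5 libraries, 91 genes were higher in MCF10A GIRK1 (0.799% of the 11389 tested) and 47 were lower (0.413%) at an adjusted p below 0.05 (edgeR's quasi-likelihood test, GIRK1 against the mean of the 3 controls, Benjamini-Hochberg over all genes tested). These are the genes called below. Genes that passed at an unadjusted p below 0.05 numbered 977 higher (8.58%) and 1157 lower (10.2%). In both directions together 1.21% of the genes were called. For every called gene, both GIRK1 libraries lay on one side of all 3 controls. That separation alone was common, with 2418 genes above all controls (21.2%) and 2338 below (20.5%). A gap of at least 2-fold between the nearest GIRK1 and control libraries was found for 82 called higher genes (0.72%) and 40 called lower genes (0.351%). The median log2 fold change over all genes tested was -0.01. Beside KCNJ3 and RAB31, each with a group at 0 reads, the called changes ran from 1.0 to 8.31 on the log2 scale among the higher genes (median 2.38) and from -7.18 to -1.02 among the lower genes (median -1.64). Since these are bulk libraries, fewer expressing cells and less RNA per cell cannot be told apart for any gene.

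**Figure D1:**
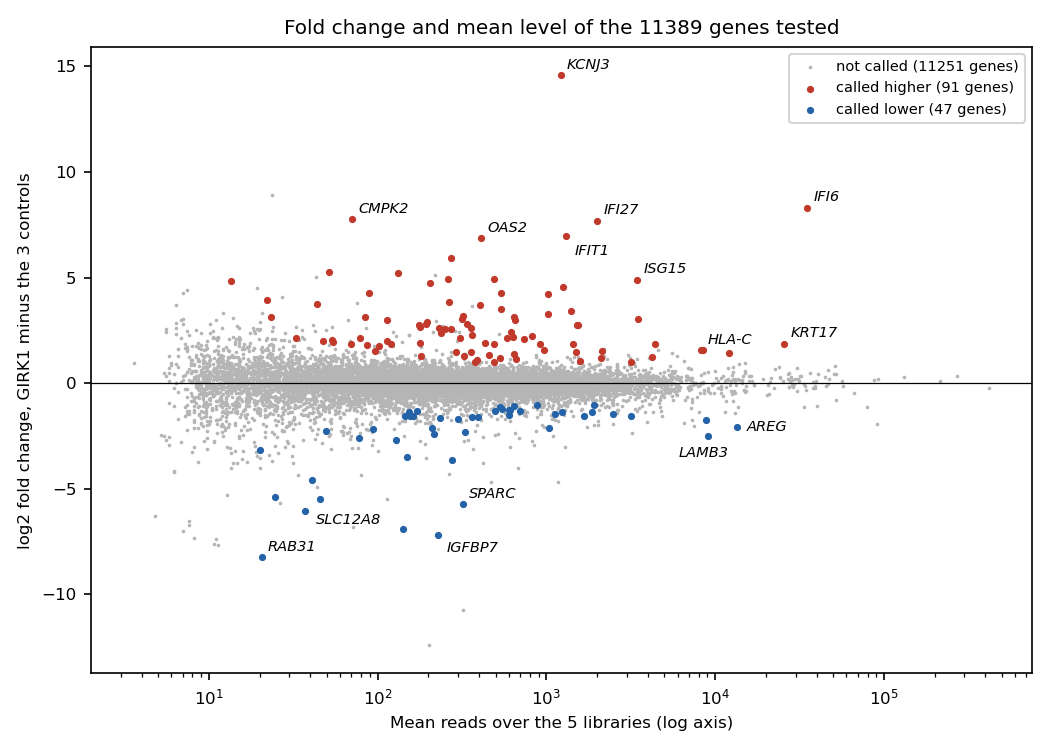
Log2 fold change of MCF10A GIRK1 against the 3 controls for each of the 11389 genes tested, against its mean reads over the 5 libraries (log axis). Red points are the 91 genes called higher, blue points the 47 called lower and grey points the others, and the height of KCNJ3, whose controls had 0 reads, depends on the prior count of the fit.

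Genes of the interferon response made up more than any other listed group of the called higher genes. Of the 91, 49 were on the 5 lists for interferon effectors, interferon signalling, nucleic acid sensors, genes preferring interferon-gamma, and antigen presentation by MHC class I. Of the 47 called lower genes, 0 were on these lists. The lists held 41, 21, 12, 10 and 21 tested genes, in that order. Over all 11389 genes tested, 0.799% were called higher and 0.413% lower. These shares are the background for the counts called on every list below. All lists were written by hand with earlier results of these data known. Among the 41 type I interferon effectors with enough reads, 27 rose, 0 fell and 14 were not called, with a median log2 fold change of 3.04. Both GIRK1 libraries lay above all 3 controls for 40 of the 41, against 21.2% of all genes tested. The members' summed level was 11689 and 15914 RPM in MCF10A GIRK1 against 919 to 1093 RPM in the controls. The number called was 11 without MCF10A GIRK1 replicate 2, 16 without MCF10A eGFP replicate 2 and 40 without MCF10A eGFP replicate 1, whereas the median stayed between 2.82 and 3.27 when any 1 library was left out.

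IFI6, which encodes a small interferon-induced membrane protein (chromosome 1, 27666061 to 27672218, minus strand), had 25.1 RPM in WT replicate 2, 35.9 and 15.6 RPM in the eGFP libraries, and 6613 and 9858 RPM in the GIRK1 libraries. The GIRK1 libraries were separated from every control by more than the whole spread among controls, with a log2 fold change of 8.31 ± 0.47 (SE; adjusted p = 0.000747). IFI27, a mitochondrial interferon-induced protein, had 0.748, 5.27 and 1.86 RPM in the controls, in the same order, and 328 and 609 RPM in MCF10A GIRK1. Its level in WT replicate 2 was below both eGFP libraries, and its change was 7.70 ± 0.73 (adjusted p = 0.00534). CMPK2, a mitochondrial nucleotide kinase, had 1, 0 and 1 reads in the controls and 204 and 145 in MCF10A GIRK1, a ratio of pooled reads of 255 with a 95% counting interval from 70.2 to 2117 (adjusted p = 0.000909).

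The IFIT proteins bind foreign RNA and block its translation. IFIT1 (chromosome 10, 89392546 to 89406486) had 3.24, 2.34 and 1.56 RPM in the controls and 251 and 359 RPM in MCF10A GIRK1, with a change of 6.95 ± 0.34 (adjusted p = 0.000605, the smallest value, shared with HERC6 and IFI44). IFIT3 rose by 4.73, IFIT2 by 3.72 and IFIT5 by 3.04 on the log2 scale. The 4 genes lie next to each other on chromosome 10 and share sequence, so a part of their reads may be exchanged. The oligoadenylate synthetases, which activate RNase L, rose as well, OAS2 by 6.87, OAS1 by 4.21 and OAS3 by 3.42. OAS2 had at most 1.18 RPM in the controls and 82.5 and 108 RPM in MCF10A GIRK1. RSAD2, the antiviral enzyme viperin, rose by 4.93, although its controls differed widely, with 3.62 RPM in WT replicate 2 against 0.195 and 0.977 RPM in MCF10A eGFP.

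Genes that act in ISG15 conjugation were among those that rose. ISG15 is a ubiquitin-like protein, UBA7 activates it, UBE2L6 transfers it, HERC5 and its relative HERC6 belong to the ligase family, and USP18 removes it. ISG15 had 36.2, 15.2 and 24.0 RPM in the controls and 667 and 861 RPM in MCF10A GIRK1, a change of 4.90 ± 0.35 (adjusted p = 0.00142). HERC6 had 5.46 to 6.73 RPM in the controls and 107 and 125 RPM in MCF10A GIRK1, so that the controls were nearly level and the change of 4.25 had an SE of 0.19 (adjusted p = 0.000605). UBA7 rose by 3.86, USP18 by 2.81, HERC5 by 2.59 and UBE2L6 by 2.12. Further effectors that rose were IFI44L by 5.92, IFI44 by 4.56, IFI35 by 3.53, PLSCR1 by 2.76, TRIM22 by 2.60, the kinase EIF2AK2 by 1.86 and TRIM5 by 1.46.

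**Figure D2:**
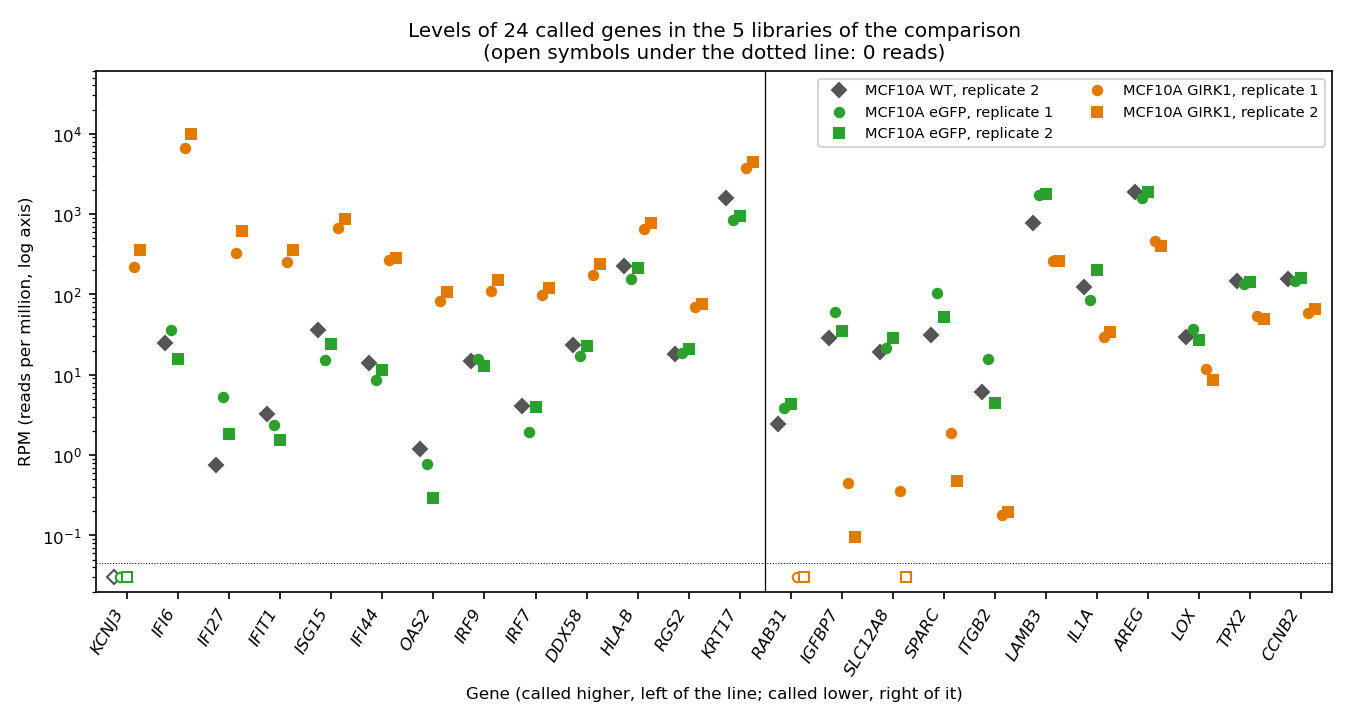
Level of 24 called genes in RPM (log axis) in each of the 5 libraries, with 13 genes called higher and 11 called lower. Diamonds are WT replicate 2, green symbols MCF10A eGFP and orange symbols MCF10A GIRK1 (circles replicate 1, squares replicate 2), open symbols mark 0 reads, and for every gene shown the orange symbols lie on one side of all controls.

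Some effectors with large differences were not called. XAF1 had 0 reads in the 3 controls and 25 and 93 reads in MCF10A GIRK1, which were themselves far apart (adjusted p = 0.0667). RTP4 had a log2 fold change of 5.0 (adjusted p = 0.0518), SAMD9L of 4.49 (adjusted p = 0.0645), LAMP3 of 3.63 (adjusted p = 0.0645) and MX1 of 2.54 (adjusted p = 0.0621). IFITM2, at 0.43, was the effector whose libraries overlapped.

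Sequences before the start sites are given for called genes, since ISGF3 binds there and the letters of its core can be looked up. RefSeq promoter windows (GRCh38.p14, 250 bases before to 50 after the start) were available for 67 of the 91 called higher genes and for 9235 of the 11389 tested. The core of the ISRE was searched as GAAANNGAAA on both strands. It was found for 33 of the 67 called higher genes with a window (49.3%), for 22 of 31 type I effectors (71.0%), for 0 of 33 called lower genes and for 363 of the 9235 tested genes (3.93%). Because fewer than 80% of the called genes had a window, the comparison of these shares is void and they are a description only. In the stretches below, each written 5′ to 3′ on the gene's strand, capitals mark the core or its reverse complement. IFI6 is shown for its change, IFIT1 and ISG15 for their paired or overlapping copies, IFI44 for a copy that ends 8 bases from the start, and TAP1 and B2M as the antigen presentation genes.
IFI6, chr1:27672236-27672325, minus strand: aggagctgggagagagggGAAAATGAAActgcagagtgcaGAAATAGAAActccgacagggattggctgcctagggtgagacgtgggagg
IFIT1, chr10:89392480-89392569, plus strand: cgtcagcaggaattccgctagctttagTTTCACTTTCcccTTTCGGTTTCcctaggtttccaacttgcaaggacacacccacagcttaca
ISG15, chr1:1013350-1013439, plus strand: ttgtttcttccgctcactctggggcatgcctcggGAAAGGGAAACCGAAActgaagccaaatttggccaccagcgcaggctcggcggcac
IFI44, chr1:78649731-78649788, plus strand: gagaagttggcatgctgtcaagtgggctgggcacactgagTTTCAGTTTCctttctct
TAP1, chr6:32853783-32853872, minus strand: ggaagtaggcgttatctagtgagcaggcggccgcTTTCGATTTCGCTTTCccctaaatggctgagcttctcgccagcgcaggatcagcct
B2M, chr15:44711339-44711428, plus strand: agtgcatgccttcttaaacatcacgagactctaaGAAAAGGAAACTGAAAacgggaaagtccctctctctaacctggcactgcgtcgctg

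Of the genes of interferon signalling, 4 of 21 rose and 0 fell (median 0.14), among them IRF9 and STAT2 of ISGF3 and the transcription factor gene IRF7. IRF9 (chromosome 14, 24161053 to 24166565, plus strand) had 14.8, 15.6 and 13 RPM in the controls, which were nearly level, and 110 and 151 RPM in MCF10A GIRK1. Its change was 3.16 ± 0.22 (adjusted p = 0.00140). STAT2 had 28.2 to 30.7 RPM in the controls and 117 and 142.8 RPM in MCF10A GIRK1, and rose by 2.11 (adjusted p = 0.00284). IRF7 rose by 4.94 (adjusted p = 0.000747), with at most 4.12 RPM in the controls and 98.3 and 119 RPM in MCF10A GIRK1. Above all 3 controls lay 11 of the 21 signalling genes and below them 1, against 21.2% and 20.5% of all genes tested. At an unadjusted p below 0.05 in edgeR, 8 were higher and 0 lower, against 8.58% and 10.2% of all genes. The receptors and kinases upstream were not called. IFNAR1 had a log2 fold change of 0.14 (adjusted p = 0.710), IFNAR2 of -0.25 (adjusted p = 0.535), JAK1 of 0.50 (adjusted p = 0.246) and TYK2 of -0.37 (adjusted p = 0.578). The interferon-gamma receptor genes IFNGR1 and IFNGR2 were at 0.75 (adjusted p = 0.223) and -0.26 (adjusted p = 0.511).

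None of the 9 interferon ligand genes on the list had enough reads to be tested. No library of the 6 had more than 8 reads of any of them. IFNL1, a type III interferon, had 2 and 5 reads in MCF10A GIRK1 and 0 in the other libraries, and IFNB1 had 2 reads in each GIRK1 library against 1, 0 and 0 in the controls. A difference in the ligands was not detectable at this depth.

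Among nucleic acid sensors, which detect viral RNA or DNA in the cell, 6 of 12 rose and 0 fell (median 1.84). DDX58, which encodes RIG-I, had 23.8, 17 and 23 RPM in the controls and 173 and 239 RPM in MCF10A GIRK1 (change 3.26 ± 0.22, adjusted p = 0.00137). DDX60, its helicase relative DDX60L and IFIH1 (MDA5) rose by 3.00, 2.68 and 2.59. The endosomal RNA receptor TLR3 rose by 2.15 and the DNA sensor IFI16 by 1.54. The adapters that pass the signal on were not called, with MAVS at -0.19 (adjusted p = 0.757), TMEM173 (STING) at -0.11 (adjusted p = 0.902) and the kinase TBK1 at 0.21 (adjusted p = 0.511). Of the sensors 1 was called without MCF10A eGFP replicate 2 or MCF10A GIRK1 replicate 2 and 2 without MCF10A GIRK1 replicate 1, with medians from 1.76 to 1.94 over the fits without 1 library.

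Genes that respond mainly to interferon-gamma were represented by 10 tested members, of which 3 rose and 0 fell (median 1.63). They were GBP1, a guanylate-binding protein, by 2.38, and the apolipoproteins APOL3 by 3.15 and APOL6 by 1.85. CXCL10 had a change of 2.99 (adjusted p = 0.0955). The MHC class II genes of the list, apart from HLA-DMA at -0.43 (adjusted p = 0.710), and CIITA, their transactivator, had too few reads to be tested. Of this list 0 genes were called without MCF10A eGFP replicate 2 or without either GIRK1 library, 2 without WT replicate 2 and 7 without MCF10A eGFP replicate 1, with medians from 1.58 to 1.98.

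Changes in the genes of MHC class I antigen presentation were smaller per gene. Of 21 tested genes 9 rose and 0 fell, with a median of 1.01. Above all 3 controls lay 17 of them, against 21.2% of all genes tested. The summed level was 7387 and 7673 RPM in MCF10A GIRK1 against 3764 to 4264 RPM in the controls. The heavy chain gene HLA-B had 226, 157 and 216 RPM in the controls and 660.2 and 784 RPM in MCF10A GIRK1 (change 1.84 ± 0.20, adjusted p = 0.00854). HLA-C rose by 1.58 and HLA-E by 1.01, and since these genes are near-identical in places their reads may be exchanged. B2M, the shared light chain, rose by 1.44, the peptide transporter subunit TAP1 by 1.45, the immunoproteasome subunit PSMB8 by 1.19, the peptidase ERAP1 by 1.0 and NLRC5, a transactivator of these genes, by 1.75. The chaperones of the general secretory pathway did not separate, with calreticulin (CALR) at -0.19 (adjusted p = 0.621) and CANX at 0.57 (adjusted p = 0.355). The number called depended on single libraries, with 0 without MCF10A eGFP replicate 2 or without either GIRK1 library and 13 without MCF10A eGFP replicate 1, while the median stayed between 1.01 and 1.16.

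**Figure D3:**
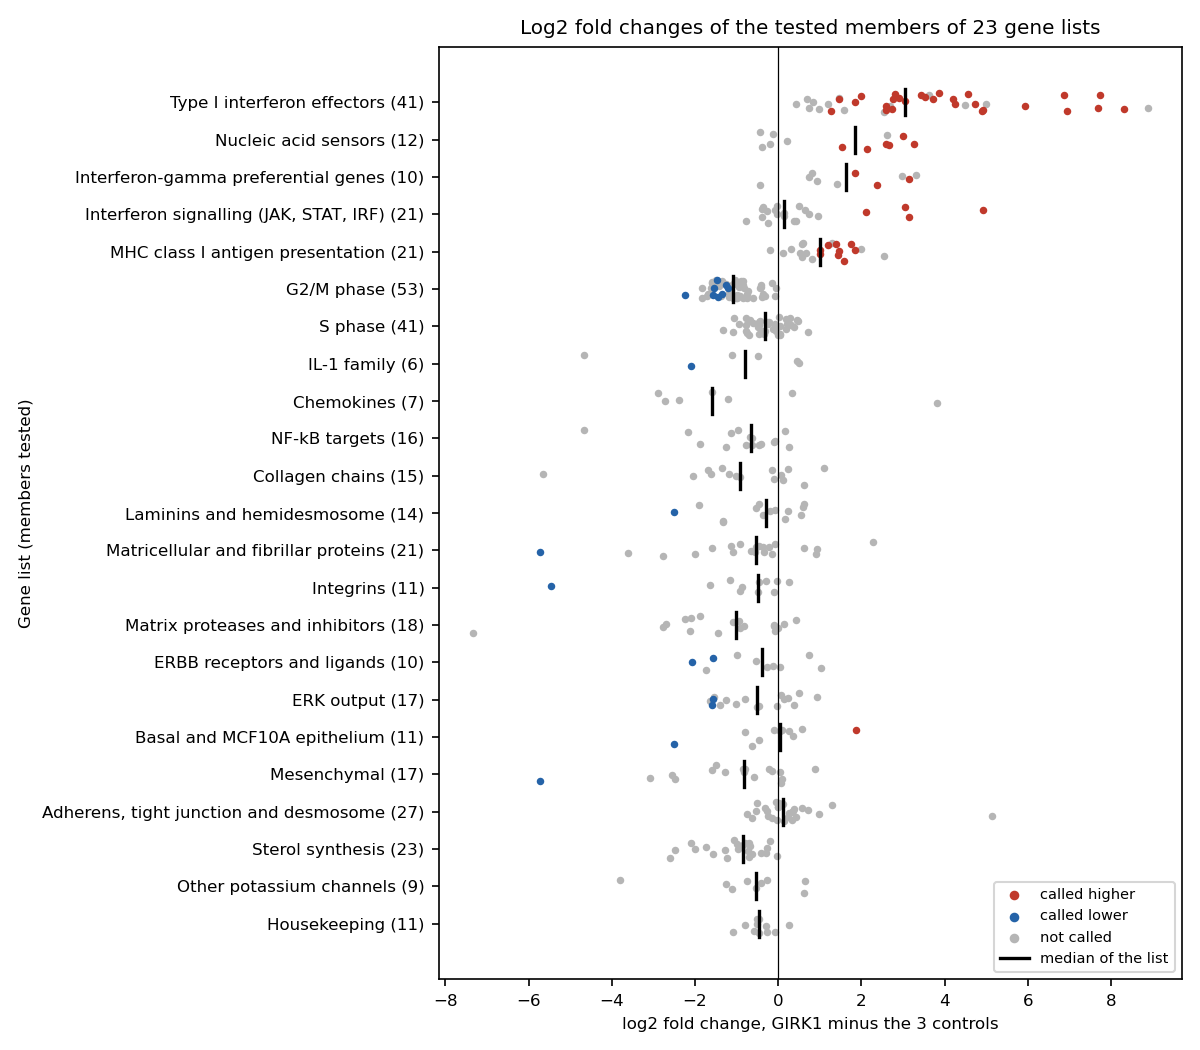
Log2 fold change of every tested member of 23 gene lists, with the number tested in brackets, coloured red where called higher and blue where called lower, and a bar at each list's median. The type I effectors lie to the right of 0 with a median of 3.04, all G2/M genes lie to the left with a median of -1.07, and most other lists hold few or no called members.

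Of the 91 called higher genes, 36 were on no list. Some of them are known to be induced by interferon as well. PARP9 and DTX3L form a complex, and they rose by 4.26 and 2.21. The other ADP-ribosyltransferase genes PARP10 and PARP14 rose by 2.43 and 1.86, and the zinc finger antiviral protein ZC3HAV1 by 1.87. The nuclear body genes SP110 and SP100 rose by 3.75 and 2.55. SP100 had 8.35, 9.36 and 8.31 RPM in the controls and 48.6 and 54.0 RPM in MCF10A GIRK1. The RNA-editing enzyme ADAR rose by 1.25 and UNC93B1, which escorts endosomal Toll-like receptors, by 1.13. C1R and C1S, the proteases of the first complement component, rose by 3.18 and 2.98.

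HSH2D, an SH2-domain adapter, had 2, 0 and 7 reads in the controls and 133 and 114 in MCF10A GIRK1. KLHDC7B had 1.12, 0.195 and 0.684 RPM in the controls and 26.8 and 32.7 RPM in MCF10A GIRK1. WT replicate 1 had 90 reads of HSH2D and 0 of KLHDC7B. Genes with no listed role in immunity included the chromatin organizer SATB1, the ectonucleotidase ENTPD2 (change 2.21, adjusted p = 0.0213) and the nuclear long non-coding RNA MALAT1 (1.57, adjusted p = 0.0455). SATB1 had 8, 0 and 2 reads in the controls and 52 and 48 in MCF10A GIRK1.

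Of the lists outside the interferon response, single members rose. RGS2, which speeds the shut-off of Gq-coupled signals, had 18.4, 18.5 and 20.9 RPM in the controls and 70.2 and 75.1 RPM in MCF10A GIRK1. The libraries of each group were nearly level, and the change was 1.89 ± 0.17 (adjusted p = 0.00407). The basal keratin KRT17 had 1569.8 RPM in WT replicate 2, 853 and 952 RPM in the eGFP libraries and 3800.2 and 4513 RPM in the GIRK1 libraries (1.87 ± 0.27, adjusted p = 0.0278), and KRT16 of the cornified envelope list rose by 1.34. LCN2, the iron-siderophore binding protein lipocalin 2, rose by 2.82 (adjusted p = 0.00860) and the thymidine phosphorylase gene TYMP by 2.76 (adjusted p = 0.0113). For both, WT replicate 2 was the highest control. LCN2 was the member called among 10 antimicrobial genes (median -0.66, between -1.22 and -0.08 without 1 library) and TYMP among 15 angiogenic factors (median -0.98), medians opposite in sign to the called gene.

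Among the genes lower in MCF10A GIRK1, several were close to absent there. IGFBP7, a secreted insulin-like growth factor binding protein (chromosome 4, 57030773 to 57110385, minus strand), had 462, 307 and 364 reads in the controls and 5 and 1 in MCF10A GIRK1, a change of -7.18 ± 0.65 (adjusted p = 0.00431). SLC12A8, of the cation-chloride cotransporter family (chromosome 3, 125082636 to 125212864, minus strand), had 305, 109 and 291 reads in the controls and 4 and 0 in MCF10A GIRK1 (adjusted p = 0.00436). Both genes were thus read at 19.0 to 59.9 RPM in every control and at most at 0.450 RPM in MCF10A GIRK1. The small GTPase gene RAB31 (chromosome 18, 9708165 to 9862551) had 39, 20 and 44 reads in the controls and 0 in both GIRK1 libraries, at least 12.2-fold lower by the floor of 3 reads per library (adjusted p = 0.0263). WT replicate 1 had 448 reads of RAB31, 5 of SLC12A8 and 0 of IGFBP7.

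SPARC, a matricellular protein that binds collagen (chromosome 5, 151661096 to 151687165, minus strand), had 31.7 RPM in WT replicate 2, 104 and 52.2 RPM in the eGFP libraries, and 1.89 and 0.483 RPM in MCF10A GIRK1. The GIRK1 libraries were below all controls although the controls themselves differed, and the change was -5.73 ± 0.78 (adjusted p = 0.0217). ITGB2, the integrin beta chain of leukocytes, had 98, 80 and 46 reads in the controls and 2 in each GIRK1 library (adjusted p = 0.0425). DOCK8, a guanine nucleotide exchange factor, had 44, 30 and 48 reads in the controls and 2 and 0 in MCF10A GIRK1, a ratio of pooled reads of 41.7 with a 95% counting interval from 11.3 to 348 (adjusted p = 0.0422). DENND2D had 61, 47 and 77 reads in the controls and 1 in each GIRK1 library (adjusted p = 0.0152).

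GPR141, an orphan receptor, fell by 3.52 and DLL3, an inhibitory Notch ligand, by 2.69 on the log2 scale. DMBT1, a secreted scavenger-receptor protein, fell by 2.59, the adapter SH2D2A fell by 2.40, the glycosyltransferase B3GALNT1 by 2.16 and ARHGAP29, a GTPase-activating protein, by 2.14. ARHGAP29 had 26.7 to 32.0 RPM in the controls and 6.21 and 7.25 RPM in MCF10A GIRK1 (adjusted p = 0.00815).

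LAMB3, a chain of laminin-332 of the basement membrane, had 768 RPM in WT replicate 2, 1747 and 1790.1 RPM in the eGFP libraries, and 258 and 259.9 RPM in MCF10A GIRK1. WT replicate 2 lay between the eGFP and GIRK1 libraries. The change was -2.50 ± 0.41 against the mean of the controls (adjusted p = 0.0442) and -1.55 against WT replicate 2 (adjusted p = 0.0892). Of 14 genes on the laminin and hemidesmosome list 0 rose and 1 fell (median -0.29), and of 11 lysyl oxidases and collagen hydroxylases 1 fell, namely LOX by 1.64 (median -0.37). Matricellular and fibrillar proteins (1 of 21 fell, median -0.53), integrins (1 of 11, median -0.47) and mesenchymal genes (1 of 17, median -0.83) had SPARC or ITGB2 as the called member. Below all controls were 10 of the 21, 7 of the 11 and 12 of the 17 genes, against 20.5% of all genes tested. The integrin median was -0.21 and that of the lysyl oxidase list -0.19 without MCF10A eGFP replicate 1, and the matricellular median was -0.91 without MCF10A GIRK1 replicate 1.

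Among ligands of the epidermal growth factor receptor, 2 fell. AREG, which encodes amphiregulin (chromosome 4, 74445134 to 74455009), had 1890.5, 1594 and 1874 RPM in the controls and 469 and 397 RPM in MCF10A GIRK1. The 3 controls were close together, and the change was -2.07 ± 0.18 (adjusted p = 0.00373). EREG, its neighbour that encodes epiregulin, fell by 1.57 (adjusted p = 0.0489). They were the called members among 10 genes of the ERBB list (median -0.39), and AREG also the called member among 10 luminal genes (median -0.15). Of the genes driven by ERK, the kinase downstream of that receptor, DUSP5 fell by 1.59 and IER3 by 1.57, 2 of 17 (median -0.50). IL1A, a cytokine of the interleukin-1 family, had 124, 85.2 and 200.0 RPM in the controls and 30.0 and 34.2 RPM in MCF10A GIRK1 (change -2.10 ± 0.34, adjusted p = 0.0453), and was the called member of 6 in that family (median -0.80). IL1B was called in a 4-library fit against MCF10A eGFP alone (adjusted p = 0.0045) but not against the 3 controls. It had 17.1 RPM in WT replicate 2, 190.4 and 99.4 RPM in the eGFP libraries and 4.5 and 3.77 RPM in the GIRK1 libraries (-4.67 ± 1.04, adjusted p = 0.0907).

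Genes of the G2/M phase were lower as a list. Of 53 tested genes 8 fell and 0 rose, and all 53 had a negative log2 fold change. Below all 3 controls lay 47 of them, against 20.5% of all genes tested. The changes ran from -2.25 to -0.04 (median -1.07). The summed level was 2456 and 2623 RPM in MCF10A GIRK1 against 4301 to 4479.8 RPM in the controls. TPX2, a spindle assembly factor, had 146, 135 and 144 RPM in the controls and 54.3 and 49.5 RPM in MCF10A GIRK1 (change -1.47 ± 0.16, adjusted p = 0.00972). CCNB2, a mitotic cyclin, fell by 1.35 (adjusted p = 0.0152), UBE2C of the anaphase-promoting pathway by 1.45, the centromere protein genes CENPF and HJURP by 1.20 and 1.25, FAM64A by 1.57, GAS2L3 by 1.54 and the mitotic kinase gene AURKA by 2.25. KIF20A, a kinesin of cytokinesis that is not on the list, fell by 2.33, and CEP55 of the same process by 1.31. MKI67 was not called at -1.18 (adjusted p = 0.0776), nor were CDK1 at -0.60 (adjusted p = 0.145) and TOP2A at -1.05 (adjusted p = 0.0645). These are RNA levels. In the study's own flow cytometry the cell-cycle phases did not differ significantly between MCF10A WT, MCF10A eGFP and MCF10A GIRK1.

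On the S phase list 0 of 41 genes were called (5 lower at an unadjusted p below 0.05 and 2 by DESeq2). Below all controls were 12 and above them 2, against 20.5% and 21.2% of all genes tested. The S phase median was -0.31 (0.01 without MCF10A eGFP replicate 1 and -0.16 without MCF10A GIRK1 replicate 2). The number of G2/M genes called went from 0 without MCF10A eGFP replicate 2 or without either GIRK1 library to 41 without MCF10A eGFP replicate 1, while the median stayed between -1.16 and -1.03. WT replicate 1 had a summed G2/M level of 6693 RPM, above all others. The cell-cycle homology region (CHR), bound by the complexes that time G2/M transcription, was searched as TTTGAA on both strands. It was found in the windows of 32 of the 44 G2/M genes that had one (72.7%) and for 1244 of the 9235 tested genes (13.5%). Of the 33 called lower genes with a window, 9 had it (27.3%). The G2/M list was written by hand, so its share describes the list. The shares were not tested and are a description only. A called G2/M gene with the motif close to its start and one with it farther away are shown, with the motif in capitals.
CCNB2, chr15:59105077-59105145, plus strand: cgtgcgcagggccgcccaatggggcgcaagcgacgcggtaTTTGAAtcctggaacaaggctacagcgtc
HJURP, chr2:233854601-233854686, minus strand: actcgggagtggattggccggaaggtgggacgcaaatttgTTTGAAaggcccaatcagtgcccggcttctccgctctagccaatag

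Further called lower genes included the histone genes HIST1H4C by 1.73 and HIST1H1E by 1.35 on the log2 scale, where near-identical copies make the assignment of reads uncertain. The ubiquitin ligase NEDD4L fell by 1.02, the splicing factor gene SNRPA by 1.04, the mitochondrial arginase ARG2 by 1.62, the actin-binding COTL1 by 1.56 and PID1 by 1.69.

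Of the G-protein genes near the channel, 0 of 9 beta and gamma subunit genes were called (median -0.22), with GNG4 at -1.80 (adjusted p = 0.120), and RGS2 was the called member of 11 genes for Gi/o alpha subunits and RGS proteins (median -0.47). Among 9 other potassium channel genes with enough reads 0 were called (median -0.53). IGFBP7 was the called member of 7 IGF-binding protein genes (median 0.26) and RAB31 of 17 RAB GTPase genes (median -0.22). The basal epithelial list held KRT17 higher and LAMB3 lower among 11 genes (median 0.05), and the cornified envelope list KRT16 among 7 (median 0.36, or -0.47 with the members added when low counts were not filtered).

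In 21 of the 44 lists with tested members no gene was called by edgeR. They held 299 genes, of which 10 were higher and 67 lower at an unadjusted p below 0.05, and 4 and 35 were called by DESeq2. Over all 11389 genes tested, 8.58% were higher and 10.2% lower at that unadjusted p, and DESeq2 called 336 and 462. Among these 21 lists, all 23 genes of sterol synthesis had a negative log2 fold change (median -0.84). Over all genes tested, 5773 of 11389 had one. Below all controls were 6 of the 23, against 20.5% of all genes tested, and without MCF10A eGFP replicate 1 the median was -0.08. MCF10A eGFP replicate 1 had 729 RPM of FDPS, an enzyme of that pathway, against 158 and 102 RPM in the other controls and 78.0 and 84.3 RPM in MCF10A GIRK1. Metallothioneins (4 genes, median -1.65) had the same library high, with 32170.3 RPM of MT2A against 10226 and 5712 RPM, and a median of -0.77 without it. Matrix proteases (18 genes, median -1.01), collagens (15, median -0.92), glycolysis (23, median -0.68), NF-kB targets (16, median -0.66) and chemokines (7, median -1.58) also had medians below that of all genes. Without MCF10A eGFP replicate 1 these were -0.19 for the proteases, -0.38 for the collagens and -0.18 for glycolysis, against -0.57 for NF-kB targets and -1.42 for chemokines. Without MCF10A GIRK1 replicate 1 the protease median was -1.76, and without MCF10A eGFP replicate 2 the collagen median was -0.60. TGF-beta genes (21, median -0.37), NRF2 targets (14, median -0.15) and YAP targets (23, median -0.10) were nearer to it. CDK inhibitors and G1 cyclins (18, median -0.02), cell junctions (27, median 0.12), the unfolded protein response (18, median 0.24) and kallikreins (2, median 1.41) were level or above. Housekeeping genes had a median of -0.46 over 11 genes (-0.17 without MCF10A eGFP replicate 1), with ACTB at 8981 RPM in MCF10A eGFP replicate 1 and 2615 to 3752 RPM in the other 4 libraries.

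Markers of other cell types were few. No gene was called among 2 fibroblast (median 1.26), 2 leukocyte (median -0.21) and 2 endothelial (median -1.03) markers with enough reads, of 8, 7 and 5 listed. The fibroblast marker DCN, a secreted proteoglycan, had 10.2, 0.780 and 3.71 RPM in the controls and 27.0 and 25.2 RPM in MCF10A GIRK1 (adjusted p = 0.145).

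The control lines were then set apart in 1 fit with 3 groups. Against MCF10A eGFP, 88 genes were higher and 88 lower in MCF10A GIRK1 (0.773% each), and against WT replicate 2, a single library assumed to vary like the others, 23 were higher (0.202%) and 4 lower (0.0351%). The contrasts share the GIRK1 libraries. The genes called against WT replicate 2 included IFI6 (8.38, adjusted p = 0.0209), IFIT1 to IFIT3, ISG15, IRF7, IRF9, DDX58 and KCNJ3 among the higher ones and IGFBP7, SLC12A8, AREG and GPR141 as the lower ones. RAB25, a GTPase of apical recycling, was called there (3.96, adjusted p = 0.0494) but not against the mean of the 3 controls (5.14, adjusted p = 0.0645). It had 0 reads in both eGFP libraries and 50 reads in WT replicate 2 against 618 and 422 in MCF10A GIRK1. Between MCF10A eGFP and WT replicate 2, 0 genes were called either way (0%), 240 higher and 137 lower in MCF10A eGFP passed at an unadjusted p below 0.05, and the smallest adjusted p was 0.362. With 1 WT library this does not show that these lines are alike.

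The 4-library fit of MCF10A GIRK1 against MCF10A eGFP alone called 88 genes higher (0.78% of 11279) and 84 lower (0.745%). WT replicate 2, which that fit did not use, was set beside them. Since the genes were selected for a gap between the other libraries, its positions are a description only. Of the 88 higher genes, WT replicate 2 lay within or beyond the eGFP range, away from MCF10A GIRK1, in 32, between the groups in 54 and level with MCF10A GIRK1 in 2. Of the 84 lower genes these numbers were 9, 74 and 1. WT replicate 2 was nearer to the eGFP mean than to the GIRK1 mean in 76 of the 88 and 66 of the 84. In the 5 libraries, 66 of the 88 and 33 of the 84 were also called. IGF2BP3, an RNA-binding protein, was a higher gene that WT replicate 2 reached, with 22.4 RPM against 21.6 and 27.1 RPM in MCF10A GIRK1 and 2.73 and 6.06 RPM in MCF10A eGFP. COL6A2, a chain of collagen VI, was the lower one, with 1 read in WT replicate 2, 1 in each GIRK1 library and 35 and 94 in MCF10A eGFP (adjusted p = 0.200 in the 5 libraries).

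Further genes that the study names from its comparison with MCF10A eGFP were not called against the 3 controls. Apart from COL6A2, whose libraries overlapped, both GIRK1 libraries lay on one side of the controls for those tested. Of all genes tested, 21.2% lay above all 3 controls and 20.5% below. The study defined its genes by a minimum fold difference and a limit on the variation between replicates, and that definition names no adjusted p. A gene not called here may therefore still meet the study's definition, which was not applied. In the 4-library fit against MCF10A eGFP alone, THBS1 (adjusted p = 0.0185) and CCBE1 (adjusted p = 0.0347) were called, as was COL6A2 (adjusted p = 0.00677). Not called in that fit either were COL8A1 (adjusted p = 0.0776), MTSS1 (adjusted p = 0.0932), DCLK1 (adjusted p = 0.0530) and SERPINA1 (adjusted p = 0.120). Against the 3 controls THBS1, an adhesive glycoprotein, was at -1.99 (adjusted p = 0.0907), CCBE1 at -2.78 (adjusted p = 0.130), COL8A1 at -1.61 (adjusted p = 0.116), MTSS1 at -1.87 (adjusted p = 0.0901) and DCLK1, a kinase, at 2.68 (adjusted p = 0.119). For THBS1, WT replicate 2 had 158 RPM, the eGFP libraries 426 and 320 RPM and the GIRK1 libraries 68.6 and 87.0 RPM. SERPINA1 had 5, 10 and 10 reads in the controls and 2 and 1 in MCF10A GIRK1 (adjusted p = 0.250). CD36 and TFPI2, with at most 6 reads in the 5 libraries, were not tested.

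Calls depended on which libraries entered. Leaving out 1 library at a time, the genes called higher numbered 17 to 485 and those called lower 2 to 499, and the extreme high counts came without MCF10A eGFP replicate 1. The genes called in each of these 5 fits were 17 higher ones, among them KCNJ3, CMPK2, DDX58, HERC6, IFI35, IFI44, IFI44L, IFI6, IFIT1, IFIT3, IRF7, IRF9, ISG15, OAS2, PARP10 and UBA7, and 1 lower one, SLC12A8. Without MCF10A GIRK1 replicate 2 the counts were 17 higher and 2 lower, without MCF10A GIRK1 replicate 1 they were 30 and 3, without MCF10A eGFP replicate 2 28 and 3, and without WT replicate 2 88 and 84.

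With WT replicate 1 kept as a further control, 7 genes were higher (among them CMPK2, HERC6, IFI6, IFIT1, IRF9 and OAS2, 0.0606% of 11546) and 0 lower (0%), with 773 genes at an unadjusted p below 0.05 in edgeR. The coefficient of biological variation was 0.491 in that fit and 0.247 in the 5 libraries. Of the type I effectors 5 of 41 were then called (median 3.38), and of the G2/M genes 0 of 53 (median -1.22). WT replicate 1 lay below all 3 controls in 60 of the 91 called higher genes, with 0 reads in 29, and above them in 21. Of the 47 called lower genes it lay below all 3 controls in 30 and above them in 14. The same counts were not made over all genes tested, so these are no trait of the called genes. This library was the shallowest, with 2506120 reads. Over 9212 genes, it was at least 2-fold apart from each control in 3435 to 3597.

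**Figure D4:**
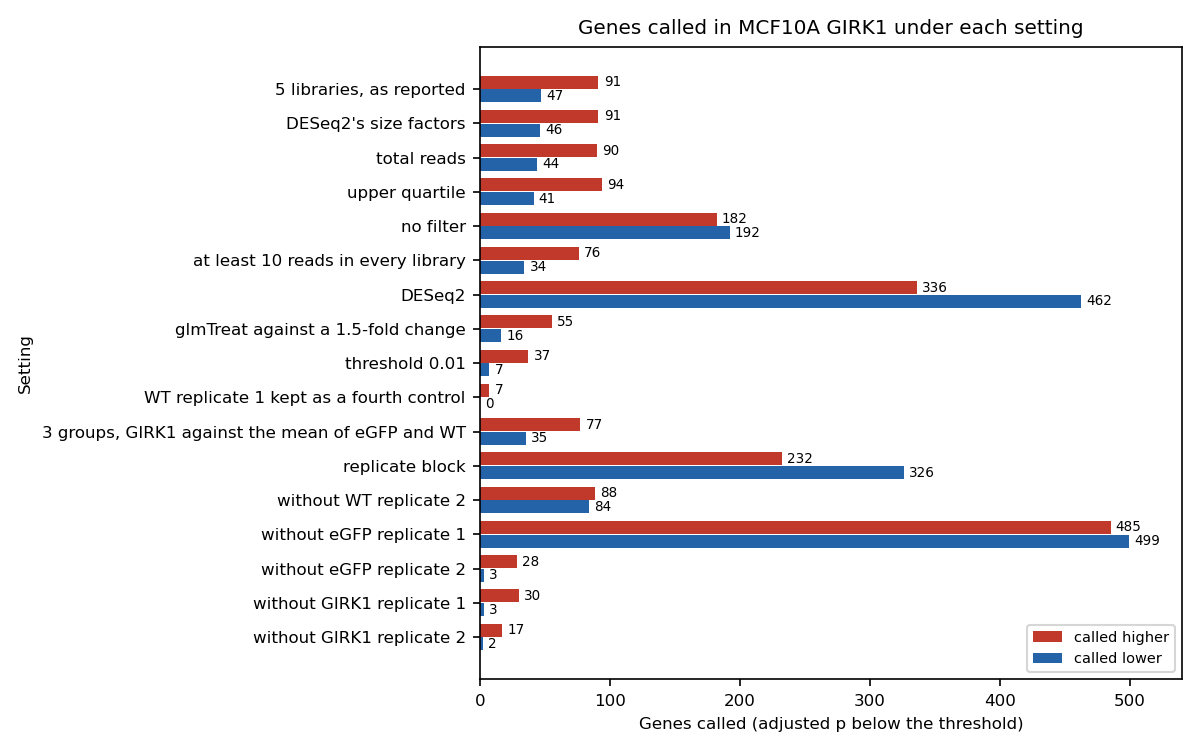
Number of genes called higher (red) and lower (blue) in MCF10A GIRK1 under each setting, from 0 on a linear axis. The counts ran from 7 higher and 0 lower with WT replicate 1 kept to 485 higher and 499 lower without MCF10A eGFP replicate 1.

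At the edge of the threshold, EREG and LAP3 (adjusted p = 0.0489) and PAQR6 (adjusted p = 0.0490) were the last genes called. SHISA5 (adjusted p = 0.0508), THEMIS2 (adjusted p = 0.0515) and RTP4 (adjusted p = 0.0518) were the first ones that were not.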

How the data were processed

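Ion AmpliSeq reads were mapped by the authors with the Ion Torrent suite to the AmpliSeq human transcriptome reference. The deposited values used were whole-number read counts per amplicon (1 amplicon per gene symbol). The deposited RPM, which the authors scaled to each library's total, were used for levels. The genome build is not given in the sources used here. Gene positions came from GENCODE v29 (GRCh38), matched by symbol. How reads of near-identical copies were assigned is not stated, and 10 spike-in amplicons without reads were left out.

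Library totals ran from 2506120 to 16040556 reads, and the floor of 3 reads from 0.187 to 1.20 RPM. Groups followed the labels, except that WT replicate 1 was left out for its values. The comparison, the gene lists and the tests were chosen with earlier results of these data known. Counts were fitted with edgeR 4.0.16 (R 4.3.3, TMM, filterByExpr, quasi-likelihood test, Benjamini-Hochberg, threshold 0.05), with limma 3.58.1, and with DESeq2 1.42.0 as an alternative. SEs were derived from the F value. The 45 hand-written lists held 907 symbols, of which 899 were matched, 5 of them by another symbol. Named genes were the GIRK subunits and genes the study names, the 15 largest called changes each way with a mean of at least 50 reads, up to 4 called members per list by p-value (2 where none was called), and genes called against MCF10A eGFP that WT replicate 2 reached. Other called genes and list members were named after their values were seen. On simulated counts for 11389 genes (50 changed genes per fold size), 10% were recovered at 2-fold, 78% at 4-fold, 96% at 8-fold and 98% at 16-fold, with 7 of 11189 unchanged genes called. The alternatives were other normalizations, filters, tests and thresholds, WT replicate 1 kept, 3 groups, a replicate block and leaving out each library. Values of some genes are not reported here.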

Additional observations from a re-analysis of the deposited data

Results flagged for a closer look

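KCNJ3 was read in the library labelled WT replicate 1, which the comparison does not use, at 19.2 RPM (48 reads, exact 95% interval 14.1 to 25.4), above the 0 reads of the 3 controls.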

How the results depend on the processing

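No gene was called in the opposite direction under any setting, but the counts moved. The called higher and lower genes were 91 and 46 with DESeq2's size factors, 90 and 44 by total reads, 94 and 41 by upper quartile, 76 and 34 with at least 10 reads in every library and 77 and 35 with 3 groups. They moved by over 1.5 times without a filter (182 and 192), with DESeq2 (336 and 462, of which 336 and 460 without overlap), at a threshold of 0.01 (37 and 7), against a 1.5-fold change (55 and 16) and with WT replicate 1 kept (7 and 0). With a 2-fold gap the counts were 131 and 146 by DESeq2, 111 lower without a filter, 16 lower against a 1.5-fold change, 37 and 7 at 0.01, and 7 and 0 with WT replicate 1. Leaving out 1 library gave 17 to 485 higher and 2 to 499 lower genes, or 17 to 185 and 2 to 158 with the gap. The replicate numbers do not pair the libraries by any label (correlation of the same-numbered deviations 0.194 across 9212 genes, which are not independent), and the replicate block gave 232 higher and 326 lower genes (231 and 316 without overlap, 113 lower with the gap) and KDR at -0.12. Among the named genes, changes of sign occurred in IFNGR2 (0.11), RAB25 (-0.03), COL1A1 (-0.26), CD14 (0.07) and CD68 (0.28) with WT replicate 1, CD14 (0.12) and CD68 (0.04) with 3 groups, and KLK7 (-0.64 to 0.92), COL1A1 (-0.26 to 0.83), KDR (-1.07 to 1.09) and CD68 (-0.32 to 0.05) over the fits without 1 library. Over the same members, the medians of 8 of 38 lists with 5 or more genes changed sign under some setting, among them S phase (0.01), the unfolded protein response (-0.13) and RAB GTPases (0.04) without eGFP replicate 1 and IGF-binding proteins (-0.49) and cell junctions (-0.03) with WT replicate 1. The cause was not tested. With 3 residual degrees of freedom and 1 WT library, 2-fold changes are mostly missed.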
